A study of Mus musculus with 10 samples.

Results

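The endoplasmic reticulum (ER) and ATF4 stress response was followed through 35 genes in RNA of the RPE (retinal pigment epithelium), a cell layer that lies behind the photoreceptors. The genes were chosen by symbol, and each matched 1 Ensembl identifier among the 47729 genes of the count table. They were grouped by role into 14 ER folding genes, 3 genes of ER-associated degradation, 4 sensors and transducers, 8 ATF4 regulators, and 6 genes of amino acid, one-carbon and tRNA charging enzymes. RNA came from wild-type CD1 mice, an outbred stock, at postnatal day 40 (P40). In each of 5 mice, 1 eye had received AAV-Best1-GFP alone (control eye), and the other eye AAV-Best1-GFP together with AAV-Best1-Nrf2 (Nrf2 eye), which gave 10 libraries. AAV is the adeno-associated virus used to carry the genes. A stretch of the human Best1 promoter, which is active in the RPE, drives both vectors, and the Nrf2 cDNA is human. The GFP vector was thus shared by all eyes, and the Nrf2 eyes carried an additional vector for which no dose-matched control was included. Per the paper, the Nrf2 and GFP vectors also had different capsids, and the total dose was higher where both were given. The RNA was taken from the eyecup after removal of the retina and was amplified before sequencing, so it can hold RNA of other cells.

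Secreted and membrane proteins fold in the ER with the help of chaperones and disulfide isomerases. When unfolded proteins accumulate there, the sensors IRE1 (Ern1), ATF6 and PERK (Eif2ak3) respond: IRE1 splices the Xbp1 mRNA, ATF6 is cleaved into a transcription factor, and both routes turn on chaperone genes through ER stress response elements in their promoters. PERK phosphorylates eIF2alpha, which favours translation of ATF4, and ATF4 turns on genes of amino acid synthesis and transport, tRNA charging and stress signalling. NRF2 is the transcription factor of the antioxidant response, and serine synthesis genes have been linked to both NRF2 and ATF4 in cancer cells. The RPE secretes proteins and digests photoreceptor outer segments daily, which places a load on its ER and lysosomes.

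Promoter sequences are shown for members with an ER stress or ATF4 element before the transcription start. Sequences with an antioxidant element are shown for Phgdh and Sesn2 only. The 7 folding genes with the first element below were then read side by side in the expression data. RefSeq promoter windows (GRCm38.p6, 250 bases before to 50 after each start) existed for 32 of the 35 genes, in 34 windows, and not for Hyou1, Manf and Atf6. Both strands were searched for the ER stress response element ERSE, which is CCAAT and CCACG separated by 9 bases, and 7 genes held it, all of the folding group: Hspa5, Hsp90b1, Calr, Canx, Pdia6, Dnajc3 and Creld2. Of all 32851 windows, 39 (0.119%) did. Capitals mark the whole element, and where they begin with CGTGG the element lies on the opposite strand.
Hspa5, chr2:34772017-34772051, plus strand: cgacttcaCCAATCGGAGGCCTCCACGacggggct
Hsp90b1, chr10:86705525-86705559, minus strand: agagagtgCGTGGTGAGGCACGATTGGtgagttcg
Hsp90b1, chr10:86705630-86705664, minus strand: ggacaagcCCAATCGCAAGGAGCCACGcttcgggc
Calr, chr8:84847067-84847101, minus strand: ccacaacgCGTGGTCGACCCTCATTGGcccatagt
Canx, chr11:50325792-50325826, minus strand: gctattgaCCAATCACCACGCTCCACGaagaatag
Pdia6, chr12:17266483-17266517, plus strand: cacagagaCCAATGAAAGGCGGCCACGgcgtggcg
Dnajc3, chr14:118937819-118937853, plus strand: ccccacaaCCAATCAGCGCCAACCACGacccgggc
Creld2, chr15:88819512-88819546, plus strand: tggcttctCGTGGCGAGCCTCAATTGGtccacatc

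The related element ERSE-II, which is ATTGG and CCACG separated by 1 base, was in the windows of Herpud1 and Dnajb11 and in 12 of all windows (0.0365%). The ATF4 element TGATGNAAT was in the window of 1 member, Aars, and in 317 of all windows (0.965%). The core of the antioxidant response element, TGACNNNGC, was in the windows of 10 of the 32 genes and in 4071 of all windows (12.4%). These were Aars, Asns, Calr, Ern1, Herpud1, Pdia3, Phgdh, Ppp1r15a, Sdf2l1 and Sesn2, whose median log2 fold change in the comparison described further on was 0.10 (-0.95 to 0.88), with 1 called higher, 1 lower and 8 not called. The matches of Sdf2l1 and Dnajb11 lie partly or wholly past the transcription start and are not shown. Of the genes with the antioxidant core, only Phgdh and Sesn2 are printed. Matches of this core before the start in Aars, Asns, Calr, Ern1, Herpud1 and Pdia3 are not shown. The printed pair therefore does not represent the 10 genes. The printed matches of Aars and Phgdh lie on the opposite strand. None of the printed matches overlapped a match of another element. A match only describes these letters, and no binding was measured here.
Herpud1 (ERSE-II), chr8:94386369-94386395, plus strand: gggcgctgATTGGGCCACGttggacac
Aars (ATF4 element), chr8:111033721-111033745, plus strand: tcttgagcATTGCATCAgccgagcc
Phgdh (antioxidant core), chr3:98340006-98340030, minus strand: ccggggagGCGGAGTCAgcagagtt
Sesn2 (antioxidant core), chr4:132510476-132510500, minus strand: cagcgggcTGACAGAGCcgggcgag

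Libraries held 12298404 to 27310638 counts, and values are given as CPM, read counts scaled to library size with TMM factors. As a check of the vector, 8 genes (7 NRF2 targets and Nfe2l2 itself, whose counts can include human reads) passed the test as higher in the Nrf2 eyes, and their summed level was 574 to 666 CPM in control eyes and 7303 to 8118 CPM in Nrf2 eyes. RPE markers were abundant in all libraries, but 8 of 14 were lower in the Nrf2 eyes. Their sum was 26637 to 50721 CPM in control and 13010 to 35434 CPM in Nrf2 eyes. The median log2 fold change of the 14 was -0.91, with 4 above 0 and none called higher. The 8 called markers ran from -2.88 (Rpe65) to -0.63 (Otx2). Ttr, the marker with the highest mean, made up a large part of the sum and was not called. Its mean was 11643 CPM in control and 11910 CPM in Nrf2 eyes. Best1 itself had a mean of only 0.77 CPM in control eyes. Of 14 microglia and macrophage markers, 12 were higher, with a sum of 195 to 322 CPM in control and 449 to 2150 CPM in Nrf2 eyes and a median log2 fold change of 4.23. Most of the control sum was Csf1r, which did not pass (mean 198 CPM in control and 142 CPM in Nrf2 eyes). None of 13 tested rod, 8 skeletal muscle, 8 endothelial or 6 fibroblast markers passed in edgeR or DESeq2, and 0 had an unadjusted p under 0.05. The rod sum ranged from 160 to 22067 CPM in control and 328 to 8678 CPM in Nrf2 eyes, with both eyes of mouse 2 highest, and the muscle sum from 52.7 to 106 CPM and from 5.68 to 625 CPM. The endothelial sum was 34.1 to 107 and 54.5 to 117 CPM, and the fibroblast sum 130 to 667 and 140 to 746 CPM. B and plasma cell markers summed to 2.40 to 9.42 and 10.2 to 28.4 CPM, where 1 of the 4 tested, Ighm, passed as higher. In such bulk samples, fewer cells of a type and less RNA per cell cannot be told apart, and apart from a fit with a covariate for rod RNA, given with the results, the part of these other cells was not tested.

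To ask whether these genes differed between the eyes of a mouse, all 16362 genes with enough counts were fitted together in edgeR (quasi-likelihood test, paired by mouse, Benjamini-Hochberg adjusted p-values). All 35 members passed the filter on low counts. Of these, 1 rose, Sdf2l1, and 2 fell, Phgdh and Ddit4, at an adjusted p-value under 0.05. Of all genes tested, 6.33% were called, 3.6% as higher and 2.73% as lower, so the share of members is near the background. The median log2 fold change was 0.04 over the 35 members and -0.01 over all genes tested, and 25 of the 35 lay within 0.25 of 0, as did 58.4% of all genes. The members were more abundant, with a median log2 CPM of 6.11 against 4.27 over all genes tested, and genes of matched level were not compared. Values of control and Nrf2 eyes did not overlap in 2 members (6.12% of all genes), with Sesn2 higher (3.87%) and Ddit4 lower (2.25%). In 7 members the Nrf2 eye was higher in every mouse, and in 5 lower in every mouse (9.23% and 10.9% of all genes, 20.2% together). An unadjusted p under 0.05 was seen for 10 members and 19.1% of all genes. DESeq2 called 8 members (9.25% of its genes), edgeR without pairing 3 (4.61%), and edgeR with a covariate for rod RNA 2 (3.38%).

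**Figure D1:**
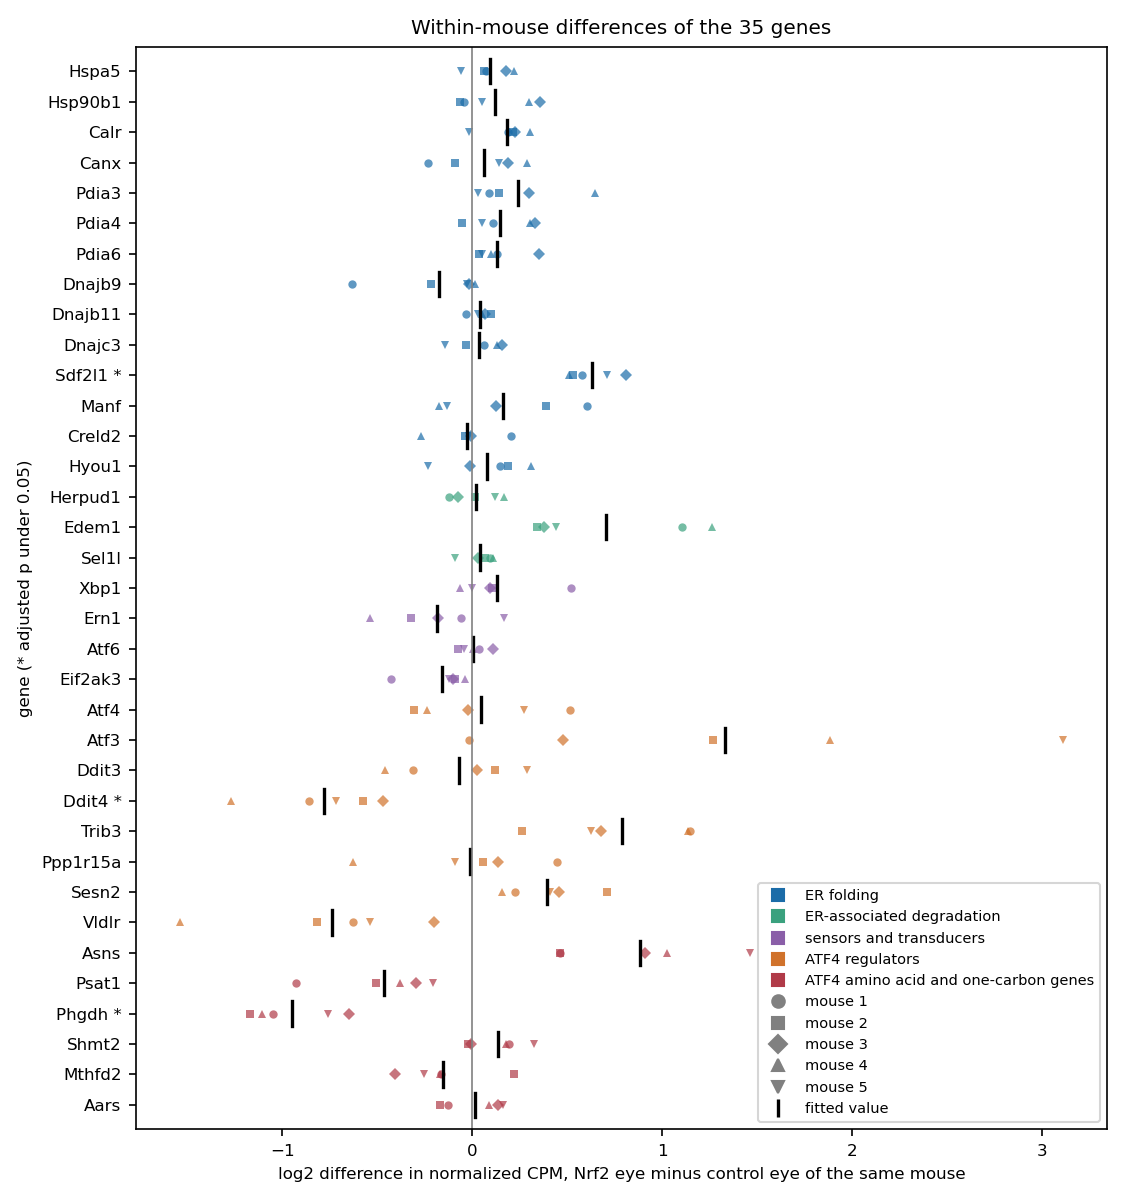
Log2 difference in normalized CPM between the Nrf2 eye and the control eye of each of 5 mice (symbols) for 35 genes colored by branch, with the fitted log2 fold change as a black bar. The fitted values of the folding genes lie between -0.17 and 0.24 except that of Sdf2l1 (0.63). Points of single mice lie outside this interval for many of the other folding genes, farthest for Pdia3 (0.64), Dnajb9 (-0.63) and Manf (0.60). The 5 points of Atf3 are the most widely spread.

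The folding genes differed little between the eyes apart from Sdf2l1, with log2 fold changes from -0.17 to 0.24 in the other 13, none of which passed. The 14 genes are Hspa5, the chaperone BiP, the ER HSP90 gene Hsp90b1, the lectin chaperone genes Calr and Canx, the disulfide isomerase genes Pdia3, Pdia4 and Pdia6, the BiP co-chaperone genes Dnajb9, Dnajb11 and Dnajc3, the nucleotide exchange factor gene Hyou1, and Sdf2l1, Manf and Creld2, smaller ER proteins induced by stress. Of the 14, 1 passed the test, the median log2 fold change was 0.11, and 12 of 14 were above 0, as were 48.7% of all genes tested. Their summed level was 3528 to 4029 CPM in control and 3661 to 4668 CPM in Nrf2 eyes.

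Hspa5 (ENSMUSG00000026864, mm10 chromosome 2, 34771970 to 34777547), the classic reporter of the unfolded protein response, was at 673, 671, 764, 824 and 797 CPM in the control eyes of mice 1 to 5. In their Nrf2 eyes it was at 708, 701, 864, 960 and 766 CPM. The ranges overlapped, and 4 of 5 mice had the higher value in the Nrf2 eye. Its log2 fold change was 0.10 (adjusted p = 0.723, SE 0.05), and the differences within mice ran from -0.06 to 0.22.

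The 7 folding genes with an ERSE printed above had log2 fold changes from -0.03 (Creld2) to 0.18 (Calr), with a median of 0.10 and no call in either direction in edgeR. Calr was at 554 ± 46.4 CPM in control and 629 ± 46.2 CPM in Nrf2 eyes (SD, n = 5 each), with differences within mice from -0.02 to 0.30. Pdia3, whose window held no ERSE, had the second largest value of the folding genes, 0.24 (adjusted p = 0.354, SE 0.11), and was higher in 5 of 5 mice, as was Pdia6 at 0.13 (adjusted p = 0.546, SE 0.06). Dnajb9, the co-chaperone ERdj4 and a target of the IRE1 route, was lowest at -0.17 (adjusted p = 0.533, SE 0.12), with a difference of -0.63 in mouse 1 and of -0.22 to 0.02 in the others.

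Sdf2l1 (ENSMUSG00000022769, chromosome 16, 17130138 to 17132383), which works with ER DNAJ co-chaperones to keep unfolded proteins from aggregating, was the only folding gene called. It was at 25.5, 21.3, 20.8, 31.7 and 23.9 CPM in the control eyes of mice 1 to 5. The Nrf2 eyes had 38.1, 30.8, 36.6, 45.2 and 39.2 CPM. Every mouse rose by a similar amount, from 0.51 to 0.81 on the log2 scale, although the control eye of mouse 4 and the Nrf2 eye of mouse 2 overlapped. The log2 fold change was 0.63 (adjusted p = 0.0107, SE 0.06), a fold of 1.55, and the call held in all 12 alternative analyses. Its mean was 24.6 ± 4.37 CPM in control and 38.0 ± 5.19 CPM in Nrf2 eyes (SD, n = 5 each).

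Of the folding genes, Hyou1 had the largest spread between mice. It was at 82.0, 50.8, 55.1, 24.2 and 26.4 CPM in the control eyes of mice 1 to 5 and at 90.8, 57.9, 54.6, 30.0 and 22.5 CPM in their Nrf2 eyes. Both eyes of mouse 1 were thus highest, and both eyes of mice 4 and 5 lowest, with a 3.39-fold range among control eyes and a log2 fold change of 0.08 (adjusted p = 0.784, SE 0.09). Its SD between mice, 0.77 on the log2 scale, was at percentile 90.1 of all genes tested, whose median was 0.26. Herpud1 ran in another order, from 113 and 104 CPM in the control and Nrf2 eyes of mouse 1 to 225 and 253 CPM in those of mouse 4. Manf and Creld2 were also highest in both eyes of mouse 4. Manf was at 103 CPM in the control and 91.3 CPM in the Nrf2 eye of this mouse, and Creld2 at 79.0 and 65.6 CPM. Manf overlaps exons of neighbouring genes, so its counts are less certain.

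**Figure D2:**
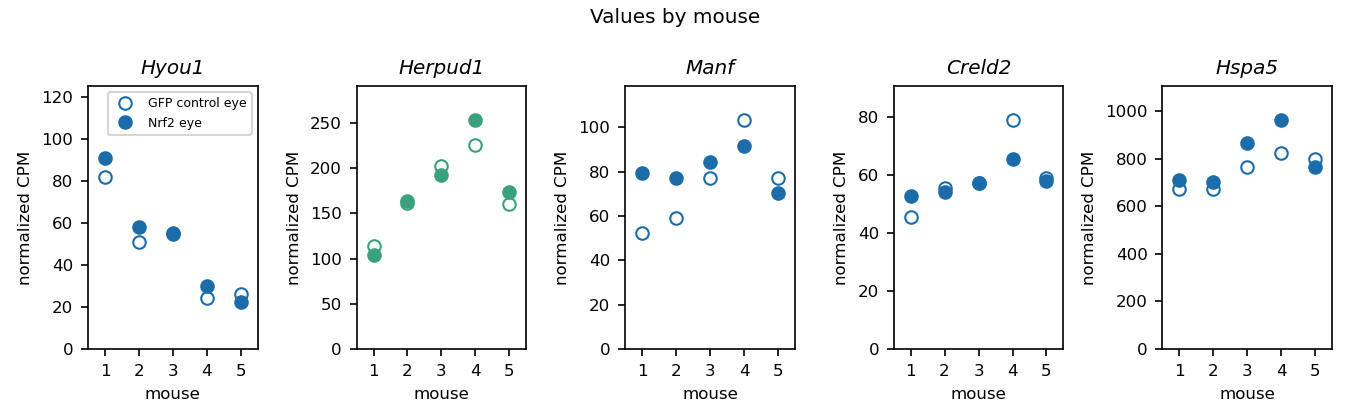
Normalized CPM of Hyou1, Herpud1, Manf, Creld2 and Hspa5 in the control eye (open) and Nrf2 eye (filled) of each of 5 mice. Eyes of the same mouse lie close together for Hyou1, from 82.0 and 90.8 CPM in mouse 1 to 26.4 and 22.5 CPM in mouse 5, and for Herpud1.

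None of the 3 degradation genes passed the test. Herpud1, which helps assemble the complex that retrieves misfolded proteins from the ER, and Sel1l, the partner of the ubiquitin ligase HRD1 there, were at 0.02 (adjusted p = 0.945, SE 0.06) and 0.04 (adjusted p = 0.865, SE 0.04) on the log2 scale. Edem1 (ENSMUSG00000030104, chromosome 6, 108828641 to 108859356), a lectin that hands misfolded glycoproteins to degradation, came nearest. It was at 38.9, 41.0, 29.9, 19.4 and 53.5 CPM in control eyes and 83.7, 52.0, 38.9, 46.7 and 72.8 CPM in Nrf2 eyes of mice 1 to 5. The Nrf2 eye was higher in 5 of 5 mice, by 0.34 to 1.26, the largest differences being in mice 1 and 4. Its log2 fold change of 0.70 (SE 0.20) had an adjusted p = 0.0568 in edgeR, and it passed the threshold in 3 of the 12 alternatives.

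None of the 4 sensor and transducer genes passed the test in edgeR or in any of the 12 alternatives, DESeq2 included, and 0 had an unadjusted p under 0.05. Their log2 fold changes ran from -0.19 to 0.13, and the median was -0.08. Atf6 was at 42.5, 49.1, 36.1, 36.7 and 47.3 CPM in control eyes and at 43.5, 46.7, 39.0, 36.9 and 45.9 CPM in Nrf2 eyes of mice 1 to 5. Its differences within mice ran only from -0.07 to 0.11 (log2 fold change 0.01, SE 0.03, adjusted p = 0.983). Ern1, the gene of IRE1, was at 10.4, 13, 19, 21 and 13.7 CPM in control and at 9.99, 10.4, 16.8, 14.4 and 15.4 CPM in Nrf2 eyes, lower in 4 of 5 mice with a log2 fold change of -0.19 (adjusted p = 0.591, SE 0.12).

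Eif2ak3, the gene of PERK, was the sensor gene with the same sign in every mouse. Its control eyes had 43.6, 41.5, 33.2, 38.0 and 35.7 CPM and its Nrf2 eyes 32.4, 38.9, 31.0, 37.0 and 32.8 CPM, a log2 fold change of -0.16 (adjusted p = 0.483, SE 0.07). Xbp1, whose spliced mRNA encodes the active factor of the IRE1 route, was at 149, 212, 218, 250 and 252 CPM in control and 213, 229, 232, 239 and 252 CPM in Nrf2 eyes. Only mouse 1 differed visibly, by 0.52 on the log2 scale, and the fitted value was 0.13 (adjusted p = 0.628, SE 0.10). Gene counts do not measure Xbp1 splicing, ATF6 cleavage or phosphorylation of PERK.

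The ATF4 regulators lay on both sides of 0. Of these 8 genes, 1 fell and 7 did not pass the test, and their log2 fold changes spanned -0.78 to 1.33 with a median of 0.02, which was 0.16 with a covariate for rod RNA and also without mouse 4. Atf4 itself was at 52.9, 84.8, 66.5, 71.1 and 65.9 CPM in control eyes and at 75.5, 68.6, 65.4, 60.3 and 79.8 CPM in Nrf2 eyes of mice 1 to 5. It was higher in 2 and lower in 3 mice (log2 fold change 0.04, SE 0.15, adjusted p = 0.922). Its RNA does not measure its translation, the step that PERK controls. Ddit3 (CHOP), the death-linked target of ATF4, was at 18.3, 20.2, 23.9, 36.7 and 16 CPM in control and 14.7, 22, 24.3, 26.7 and 19.5 CPM in Nrf2 eyes, with no common direction (-0.07, SE 0.14, adjusted p = 0.877). Ddit3 shares exon bases with the tRNA ligase gene Mars on the other strand. Ppp1r15a (GADD34), which ends the eIF2alpha signal, was at -0.01 (adjusted p = 0.982, SE 0.18) and Atf4, Ddit3 and Ppp1r15a each turned sign in some alternatives.

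Ddit4 (ENSMUSG00000020108, chromosome 10, 59949669 to 59951834), the gene of REDD1, an inhibitor of mTORC1 that is induced by stress, hypoxia and glucocorticoids, fell. Its control eyes had 21.6, 24.3, 23.7, 28.1 and 18.1 CPM and its Nrf2 eyes 11.9, 16.3, 17.1, 11.6 and 11 CPM. The groups did not overlap, and the Nrf2 eye was lower in 5 of 5 mice, by 0.47 to 1.27. It fell by 0.78 on the log2 scale (adjusted p = 0.0237, SE 0.14), to 0.583 of the control level. The call is close to the threshold: leaving out any 1 of the 5 mice gave adjusted p-values of 0.0578 (without mouse 4) to 0.0690 (without mouse 2) at log2 values of -0.80 to -0.62, and a covariate for rod RNA gave 0.0864.

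Vldlr, a lipoprotein receptor gene that ATF4 can induce, was lower in 5 of 5 mice without passing the test, at -0.74 (adjusted p = 0.0652, SE 0.22), from 84.5 ± 24.7 to 50.4 ± 15.6 CPM (SD, n = 5 each). Sesn2 and Trib3 had the opposite sign. Sesn2, a stress-induced inhibitor of mTORC1 that is a target of both ATF4 and NRF2, ranged from 24.4 to 33.7 CPM in control and from 35.3 to 40.5 CPM in Nrf2 eyes, with no overlap, and was higher in 5 of 5 mice. Its log2 fold change was 0.39 (adjusted p = 0.0992, SE 0.10). Trib3, a pseudokinase gene switched on late in the response, had 2.88 ± 1.14 CPM in control and 4.86 ± 1.28 CPM in Nrf2 eyes (0.79, SE 0.17, adjusted p = 0.118) and was higher in 5 of 5 mice.

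Atf3, an immediate responder to many kinds of stress, led the 35 genes in fold change and also in the spread of the differences within mice. It was at 5.1, 6.7, 8.6, 2.8 and 1.2 CPM in control and at 5.1, 16.2, 12, 10.5 and 10.8 CPM in Nrf2 eyes. Mouse 1 did not differ and mouse 5 differed by 3.11 on the log2 scale. The fitted 1.33 (SE 0.55) had an adjusted p = 0.169. It passed in 1 of the 12 alternatives, DESeq2. The value ran from 0.90 to 1.71 over all alternatives. Immediate early genes, which respond to tissue handling, summed to 277 to 776 CPM in control and 375 to 826 CPM in Nrf2 eyes, and none of 8 passed in edgeR or DESeq2, with 2 at an unadjusted p under 0.05. Their part in the Atf3 values was not tested.

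**Figure D3:**
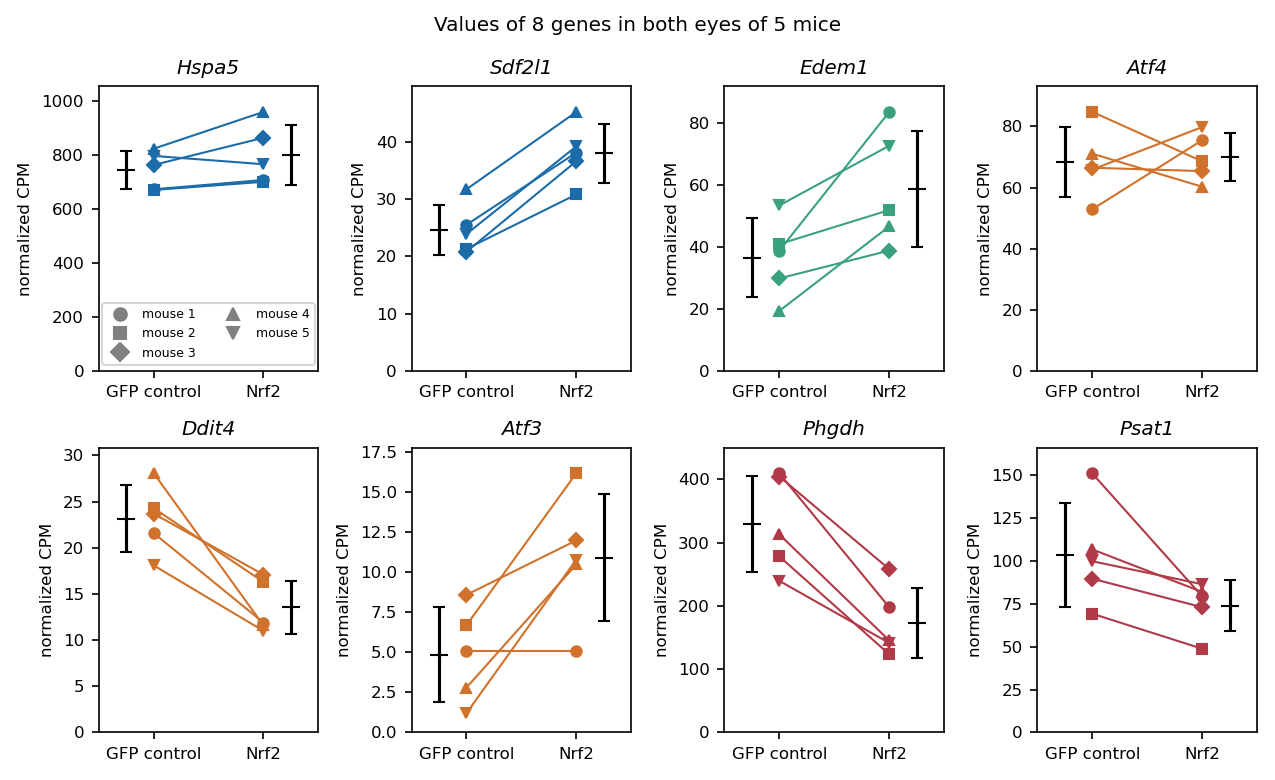
Normalized CPM of 8 genes in the control and Nrf2 eyes of 5 mice, with lines joining the eyes of a mouse and black bars for the mean and SD of 5 eyes. Sdf2l1 rises and Ddit4 and Phgdh fall in every mouse, Hspa5 and Atf4 show no such shift, and Edem1, Psat1 and Atf3 did not pass the test.

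Of the 6 amino acid and one-carbon genes, 1 fell, 5 did not pass the test, and the median log2 fold change was -0.07. This median did not keep its sign in every fit with a mouse left out. Phgdh (ENSMUSG00000053398, chromosome 3, 98313170 to 98339990), the first enzyme of serine synthesis, was the most abundant of the ATF4 genes per length. Its control eyes had 409, 278, 404, 313 and 239 CPM and its Nrf2 eyes 198, 123, 258, 145 and 141 CPM in mice 1 to 5. The Nrf2 eye was lower in 5 of 5 mice, by 0.65 to 1.17, although the Nrf2 eye of mouse 3 exceeded the control eye of mouse 5. It fell by 0.95 on the log2 scale (adjusted p = 0.00392, SE 0.10), to 0.519 of the control level, and kept its call in all 12 alternatives. RPE markers were also lower in the Nrf2 eyes, with a median log2 fold change of -0.91 over 14 markers, 4 of them above 0. The part of this fall in the Phgdh result was not tested.

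Psat1, the enzyme after PHGDH in the same pathway, had the same sign without passing the test. It was at 151, 69.2, 89.6, 107 and 99.8 CPM in control and 79.4, 48.8, 73.0, 81.9 and 86.4 CPM in Nrf2 eyes, lower in 5 of 5 mice (-0.46, SE 0.13, adjusted p = 0.0753). The last enzyme of the route, Psph, was at 21.8 ± 2.15 CPM in control and 20.7 ± 1.96 CPM in Nrf2 eyes (SD, n = 5 each). Shmt2 and Mthfd2, the mitochondrial enzymes that take one-carbon units from serine, were at 0.14 (adjusted p = 0.575, SE 0.07) and -0.16 (adjusted p = 0.754, SE 0.10).

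Asns, the asparagine synthetase gene and a direct ATF4 target, was the least abundant of the 35 genes per length in control eyes. It was at 3.1, 6.8, 1.6, 1.6 and 3.5 CPM in control and 4.3, 9.4, 3.1, 3.3 and 9.7 CPM in Nrf2 eyes, higher in 5 of 5 mice but with overlapping groups (0.88, SE 0.19, adjusted p = 0.0874). Aars, the alanyl-tRNA ligase gene, did not differ beyond its spread (0.02, SE 0.07, adjusted p = 0.959). It shares 1326 exon bases with Exosc6, so its counts may include reads of that gene.

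Compared per length (counts per kilobase of exon, scaled within each library as for TPM), the levels in control eyes spanned from 534 ± 50.8 for Calr to 3.42 ± 2.37 for Asns (SD, n = 5). Calr, Hspa5 (488 ± 26.1) and Pdia3 (414 ± 57.5) led, followed by Phgdh with 367 ± 87.6, then Canx (339 ± 40.7) and Hsp90b1 (306 ± 33.1). Among these 6 genes, neighbours in the order overlapped within their SDs. The disulfide isomerase genes Pdia4 (268) and Pdia6 (220) came next. This order depends on the length used, since with the longest transcript as length Hspa5 was at 445, and Pdia6 exceeded Pdia4 (212). The sensors were low apart from Xbp1 (184 ± 30.7), with Eif2ak3 at 17.8 ± 2.78, Atf6 at 12.8 ± 2.24 and Ern1 at 5.19 ± 1.28. In Nrf2 eyes Phgdh was at 187 ± 49.8, while Calr and Hspa5 were at 591 ± 41.9 and 513 ± 81.6.

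**Figure D4:**
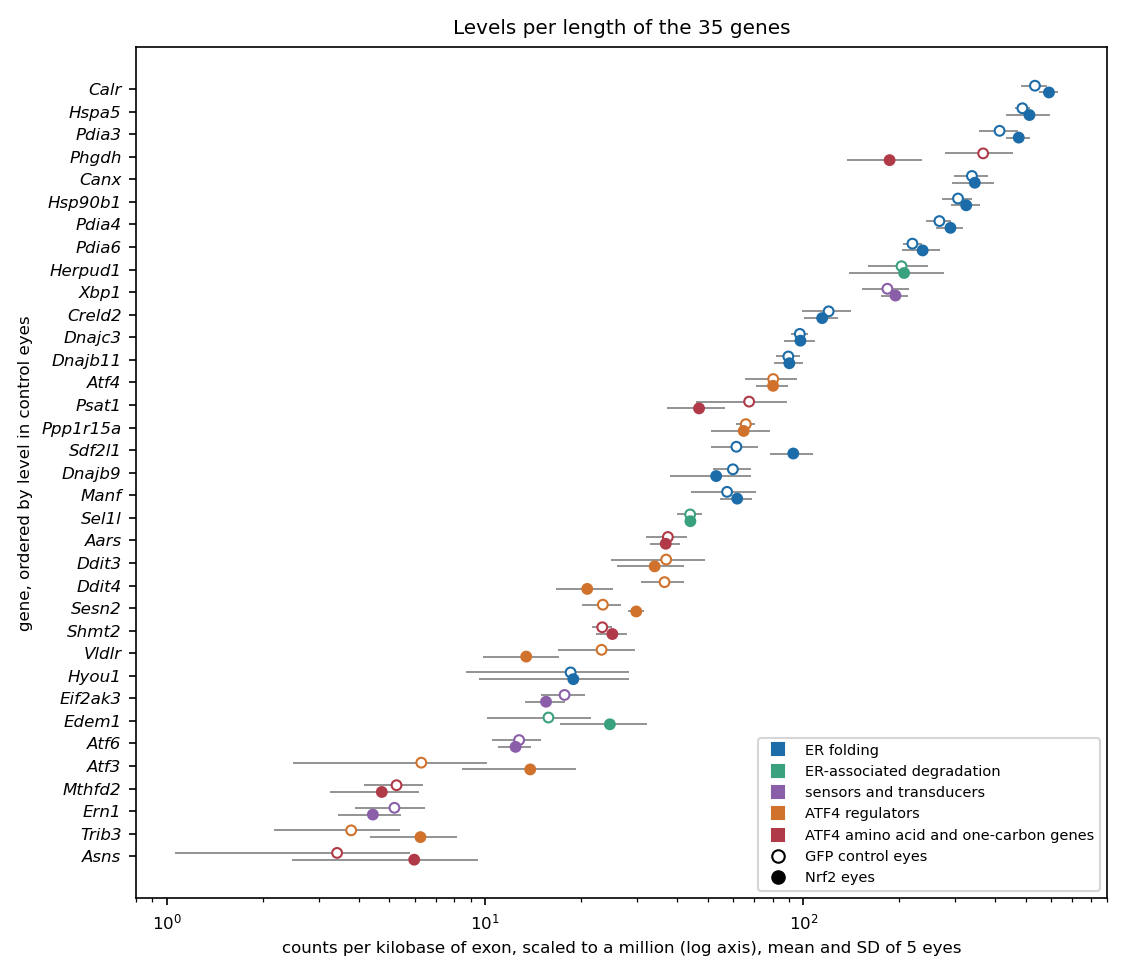
Level per length (TPM-like, counts per kilobase of exon scaled within each library) on a log axis, in control eyes (open) and Nrf2 eyes (filled), mean and SD of 5 eyes, for 35 genes ordered by the control level. The chaperones lead with Calr at 534, and the sensor Ern1 (5.19) and the ATF4 target Asns (3.42) are near the bottom. The SD bars of control and Nrf2 eyes do not overlap for the called genes Phgdh, Ddit4 and Sdf2l1. They also do not overlap for Sesn2, which did not pass the test, while those of Atf3 and Vldlr do.

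Another 109 genes of the same pathways, listed apart from the 35, were read in the same fit. Ern2, Creb3l3, Fgf21 and Adm2 had too few counts to be tested. Of the 105 tested, 8 rose and 1 fell, where 3.6% and 2.73% of all genes did, and their median log2 fold change was 0.06, against -0.01 over all genes. None of the 26 other folding and translocation genes passed in edgeR or DESeq2, and 6 had an unadjusted p under 0.05 (19.1% of all genes did), with log2 fold changes from -0.26 to 0.31. Of 16 degradation genes, Edem2, a relative of Edem1 that trims glycoproteins, rose by 0.69 (adjusted p = 0.00803, SE 0.08) in 5 of 5 mice. Creb3l1, an ER-anchored factor related to ATF6, rose by 1.96 (adjusted p = 0.00892, SE 0.29) as the only edgeR call among 14 tested sensor and transducer genes.

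Of 22 tested genes of the wider ATF4 list, 5 rose and 1 fell in edgeR, which called 6.33% of all genes, and 10 were called by DESeq2, which called 9.25% of its genes. The neutral amino acid transporter gene Slc1a4 was at 9.2, 7.4, 12.2, 11 and 7.9 CPM in control and at 213, 258, 148, 268 and 224 CPM in Nrf2 eyes, a log2 fold change of 4.54 (adjusted p = 0.000146, SE 0.25). The cystine transporter gene Slc7a11, a target of both NRF2 and ATF4, rose by 3.52 (adjusted p = 6.98e-05, SE 0.15). Gdf15, a secreted stress signal, rose by 2.46 (adjusted p = 0.00759, SE 0.33) from low counts, at 0.6 to 1.9 CPM in control and 4.0 to 8.1 CPM in Nrf2 eyes. The translation repressor gene Eif4ebp1 and the transcription factor gene Cebpb also rose. Cth, which makes cysteine from cystathionine, fell by 0.91 (adjusted p = 0.0127, SE 0.12). Stc2, a secreted glycoprotein gene, was at 1.2 to 1.8 CPM in control and 0 to 0.98 CPM in Nrf2 eyes, lower in 5 of 5 mice without overlap, and did not pass the test (adjusted p = 0.0710). Among 27 genes of amino acid synthesis, one-carbon metabolism and tRNA charging, 1 rose, the mitochondrial folate enzyme gene Mthfd1l, 2.15-fold (adjusted p = 0.0270, SE 0.20 on the log2 scale), and none fell.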

How the data were processed

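RNA of 10 eyes was profiled. Per the study's methods, the authors aligned reads with STAR to mm10 with Ensembl transcripts and counted them with featureCounts, and in parallel estimated counts per gene with Salmon (0.8.2 in the processing notes) for DESeq2. Which table was deposited, the strand setting and filters are not given in the sources used here. The deposited table holds counts, whole numbers for each gene that were not normalized. Symbols, positions and exon lengths were from GENCODE M21 (mm10), which held 99.1% of the identifiers.

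The test was that of edgeR 4.0.16 under R 4.3.3 (filterByExpr, TMM, quasi-likelihood test, mouse as block, Benjamini-Hochberg over all genes, threshold 0.05), after a test on simulated data. Each SE comes from the 5 differences between eyes of a mouse in log2 CPM (prior count 2), as their SD over the square root of n. Labels give the mouse of each eye. They mention separate sequencing runs without tying libraries to them, and all 10 titles share a prefix. Deviations from group means correlated with r from 0.18 to 0.76 between eyes of a mouse and a median of -0.10 (-0.46 to 0.38) between mice. A count of 0 allows up to 3 counts, 0.110 to 0.244 CPM, counting error only. Members and lists were chosen with earlier results of these data known. Values were given in every library for each called member and for Hspa5, Atf6, Ern1, Eif2ak3, Xbp1, Atf4, Ddit3, Atf3 and Asns, and others were added after their values were seen. From the wider lists, the called genes with the 4 largest changes in each direction were named by rule, and others after their values were seen. Alternatives were upper quartile and DESeq2 factors, DESeq2, no filter, a mean of 50 counts, no block, a rod covariate and each mouse left out. C-terminal residues of the proteins were not analysed here.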

Additional observations from a re-analysis of the deposited data

Results flagged for a closer look

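Among 70 groups of 5 values, one for each member in control and in Nrf2 eyes, 1 library stood apart from the other 4, where chance gives about 3.5. Pdia6, a disulfide isomerase gene, was lowest in the control eye of mouse 2, at 250 CPM against 302 to 321 CPM in the other control eyes, a gap that is 0.758 of the whole range on the log2 scale. The Nrf2 eye of this mouse was also the lowest of its group for Pdia6, at 256 CPM.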

How the results depend on the processing

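Of 420 values of single members over 12 alternatives, 386 kept their direction and their side of the threshold. The count of all called genes was 1036, 1812 with DESeq2, 553 with the rod covariate and 584 (without mouse 2) to 857 with a mouse left out, with 613 without mouse 4 and 683 without mouse 5. DESeq2 called 8 members, 4 higher and 4 lower, adding Edem1, Atf3, Asns, Vldlr and Psat1, and 16 wider pathway genes in place of 9; by group it called 1 degradation gene, 3 ATF4 regulators and 3 amino acid genes. Without a filter on low counts 5 members were called, 2 of them higher, 1 a degradation gene and 2 ATF4 regulators. Upper quartile factors called 2 members higher, 1 of them a degradation gene. With the rod covariate 1 member was lower and 0 were ATF4 regulators, as Ddit4 was lost. With no replicate block, 755 genes and the same 3 members were called. Leaving out a mouse always left Sdf2l1 and Phgdh, with 1 member lower and 0 ATF4 regulators. The causes were not tested.

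The ATF4 regulator median was 0.16 with the rod covariate and -0.0035 to 0.16 with a mouse left out (0.16 without mouse 4), and the folding median 0.066 to 0.15 over all alternatives. The sensor median was -0.030 with the rod covariate and -0.073 to -0.0084 with a mouse left out, the degradation median 0.056 to 0.10, and the amino acid median -0.074 to 0.0068. Members near 0 changed sign: with the rod covariate Canx (-0.0038), Creld2 (0.050), Herpud1 (-0.020), Ddit3 (0.023) and Ppp1r15a (0.16), and Ppp1r15a also with upper quartile factors (0.0053) and without the block (0.022). With a mouse left out, Creld2 ran from -0.047 to 0.067, Herpud1 from -0.0029 to 0.10, Atf4 from -0.037 to 0.17, Ddit3 from -0.16 to 0.063, Ppp1r15a from -0.093 to 0.17 and Aars from -0.018 to 0.10. On the strand of the gene alone, 0.0670% of promoter windows held ERSE, 0.566% the ATF4 element and 6.38% the antioxidant core. Among the members, 5 then held ERSE (Calr and Creld2 no longer), 0 the ATF4 element and 6 the antioxidant core, with Phgdh and Sdf2l1 among those lost.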
